A study of Mus musculus with 9 samples.

Results

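The genes described here were 10 genes of neutrophil granules and neutrophil maturation: Mpo, Elane, Camp, Ngp, Ltf, Olfm4, Pglyrp1, Cd177, Chil3 and Lyz2. They were taken by name from the 18193 genes that a probe set of the array names alone, and each was measured by 1 probe set. The set was chosen by name with the MAS5 signals of these genes on days 0, 1 and 3 already in view, so these signals are given as a description and no test is reported for any of the 10.

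Neutrophils build their granules in sequence while they mature in the bone marrow. Azurophil granules, with myeloperoxidase and neutrophil elastase, are filled at the promyelocyte stage, specific granules, with lactoferrin and cathelicidin, are filled later, and gelatinase granules and secretory vesicles come last. The transcripts of the early granule proteins are largely gone from the mature cell, whereas transcripts of mature neutrophils, such as S100a8 and S100a9, remain abundant after the cells have entered a tissue. Lyz2 and Chil3 are made by macrophages as well as by neutrophils, so neither marks neutrophils alone.

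RNA of the stromal vascular fraction (SVF), the cells left when collagenase-digested fat is freed of adipocytes, was measured on 9 Affymetrix Mouse430_2 arrays. The SVFs came from inguinal fat of wild type male Balb/c mice aged 10 weeks, isolated on day 0, 1 or 3 after the fat was surgically injured, and each day had 3 arrays, 1 for each of 3 individual mice. The labels name injury and priming, priming in the study being mincing of the fat together with ligation of its artery, and day 0 is taken here as the nonprimed group against which days 1 and 3 were compared. The study's methods use nonprimed for SVFs of sham-operated mice, whose skin was cut and sutured without damage to the fat. They do not say outright whether the day 0 mice of the arrays had this sham operation. All mice thus shared strain, genotype and age, and no sham-operated SVF was measured on days 1 and 3, so time after surgery and the surgery itself cannot be told apart.

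Each array called 24106 to 26299 of 45101 probe sets present, and the ratio of actin signals at the 3′ and 5′ ends lay between 1.15 and 1.32. Arrays of the same day correlated between 0.971 and 0.988 in log2 signal across the 11796 genes tested, each with 1 probe set. Of 8 measured genes of stromal, endothelial and fat cells and leukocytes at large, none rose on day 1 and 2 were lower, Col1a1 by 0.74 on the log2 scale and Cdh5 by 0.51, and neither was called with the arrays centred on their medians (adjusted p = 0.105 and 0.26, limma). On day 3 Col1a1 was higher than on day 0 (1.15 ± 0.22, adjusted p = 0.00344), and 4 were lower, Dcn (-0.48), Lum (-0.62), Ptprc (-0.43) and Adipoq (-0.81), none of which was called after centring (adjusted p between 0.0648 and 0.0888). With the mean of all its probe sets the change of Dcn was -0.08 (adjusted p = 0.793, limma), and Ptprc was not called either (adjusted p = 0.127). The calls of Ptprc and Adipoq were each lost in 8 of 19 alternatives. The part of these shifts in the results of the granule genes was not tested. Pdgfra and Dcn of stromal cells, Pecam1 of endothelium and Ptprc of leukocytes were called present on all 9 arrays, and so was Adipoq of adipocytes. The name of the 10 genes was less well borne out: Elane and Camp were called present on no array and Mpo on 1 of 9. Signal is the MAS5 value of a probe set on a linear scale, with every array scaled to a trimmed mean of 500, and a probe set is called present where its matched probes exceed their mismatch probes. Signals of different probe sets are not compared with each other.

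Among the 10 genes, those of early granules were at or near the limit of detection on every day, and those that were clearly detected on day 1 were Olfm4, Cd177, Chil3 and Ngp, with Pglyrp1 and Lyz2 detected from day 0 on. On day 1 the 3 signals of Ngp, Ltf, Olfm4, Pglyrp1, Cd177 and Chil3 all lay above the 3 signals of day 0, which is 6 of 10 genes, and no gene lay wholly below. Of all 11796 genes tested, 13.8% lay wholly above day 0 in this way and 26.1% wholly below. On day 3 Mpo, Olfm4, Cd177 and Chil3 lay wholly above day 0, against 22.6% of all genes, and Pglyrp1 lay wholly below it, against 24.6%. From day 1 to day 3, Ngp, Olfm4, Pglyrp1, Cd177 and Chil3 lay wholly lower, against 11.5% of all genes, and none lay wholly higher, against 23.4%. Only 6 of the 10 genes were called present on all 3 arrays of a day. Olfm4 and Cd177 met this on day 1 alone, and Chil3 and Ngp on days 1 and 3 but not on day 0. The shares of all genes cover only genes that met this, which Mpo and Ltf did not. Of the 6 genes, 5 lay wholly above day 0 on day 1 and 3 on day 3. These counts depend on the filter, which Olfm4, Cd177, Chil3 and Ngp passed only through days after day 0. In RNA of a mixed tissue fraction, fewer cells of a type and less RNA per cell cannot be told apart.

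**Figure D1:**
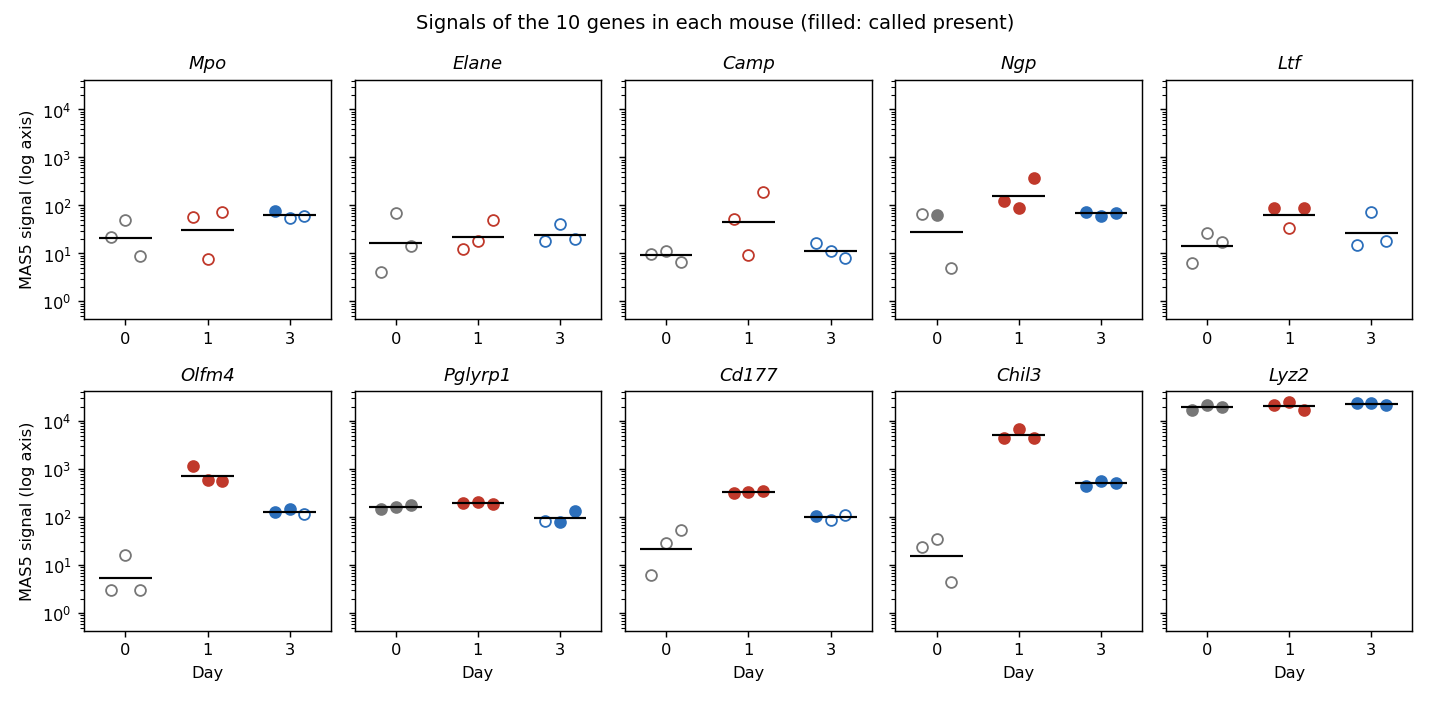
MAS5 signal of the 10 genes (log axis) in each of the 3 mice of days 0, 1 and 3. Each point is a mouse, filled where the probe set was called present and open where it was not, and bars are geometric means. Chil3, Olfm4 and Cd177 were highest on day 1 and between the other days on day 3, whereas Elane and Camp were open on every array and Lyz2 stayed between 17302 and 24703.

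Mpo encodes myeloperoxidase, the enzyme of azurophil granules that makes hypochlorous acid. Its signals were 21.9, 50.1 and 8.85 on day 0, 56.6, 7.56 and 73.2 on day 1, and 75.7, 54.4 and 59.0 on day 3. Only the mouse with 75.7 was called present, and days 0 and 1 overlapped while the signals of day 3 all lay above those of day 0. The change of the mean log2 signal from day 0 to day 3 was 1.55 ± 0.84 (SE). Each SE given here comes from a fit over all 9 arrays. It pools the spread of the 3 days, that of day 0 included, also for changes from day 1 to day 3.

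Elane encodes neutrophil elastase, a serine protease of the same granules. Its signals were 4.17, 70.8 and 14.5 on day 0, 12.6, 17.8 and 50.8 on day 1, and 18, 41.2 and 20.2 on day 3. The highest signal of all belonged to a mouse of day 0, the days overlapped, and no fold is given because no array called the gene present.

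Camp encodes the cathelicidin precursor and Ngp the related neutrophilic granule protein, both stored in specific granules. The signals of Camp were 9.87, 11.2 and 6.77 on day 0, 53.4, 9.09 and 190 on day 1, and 16.8, 11.3 and 8.03 on day 3. A pair of day 1 mice had the highest signals, yet the detection p of the highest was 0.0806, so Camp was not called present on any array and the days overlapped. The signals of Ngp were 67.1, 64.6 and 4.92 on day 0, 123, 88.2 and 371 on day 1, and 72.9, 61.1 and 71.0 on day 3. All mice of days 1 and 3 and 1 mouse of day 0 were called present, day 1 lay above both other days without overlap, and days 0 and 3 overlapped. The log2 change was 2.52 ± 0.85 from day 0 to day 1 and -1.22 ± 0.85 from day 1 to day 3. Both values leaned on single mice: without the day 0 mouse at 4.92 the first was 1.27, and without the day 1 mouse at 371 the second was -0.61. From day 0 to day 3 the log2 change of Ngp was 1.30 ± 0.85, and 0.05 without the same day 0 mouse.

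Ltf encodes lactoferrin, the iron-binding protein of specific granules. Its signals were 6.25, 27.0 and 17.0 on day 0, 89.4, 33.7 and 87.6 on day 1, and 15.1, 72.7 and 18.3 on day 3. Day 1 lay above day 0 without overlap, 2 of its 3 mice being called present, and day 3 overlapped with both. The signal of day 1 was at least 3.91-fold higher than that of day 0, with a log2 change of 2.18 ± 0.74. Here and below, "at least" compares mean log2 signals, the brighter day against the day on which no array called the gene present, after each array of the latter was raised to the lowest signal it called present where its own was lower. That lowest signal, over all probe sets of an array, lay between 6.19 and 10.2. It is not the detection limit of each gene, since Cd177 was called absent at a signal of 110 on day 3. The "at least" values therefore hold only relative to this floor. For Ltf the bound was 3.00 to 5.39 with each array of the 2 days left out in turn.

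Olfm4 encodes olfactomedin 4, which is found in specific granules of a subset of neutrophils and also in epithelia. Its signals were 2.98, 16 and 3.05 on day 0, 1185, 582 and 571 on day 1, and 126, 149 and 114 on day 3. No mouse of day 0 was called present, all 3 of day 1 were and 2 of day 3 were, and the 3 days did not overlap. Day 1 was at least 63.2-fold and day 3 at least 11.1-fold higher than day 0, the log2 changes being 7.12 ± 0.55 and 4.61 ± 0.55. Without the day 0 mouse at 16 the changes were 7.92 and 5.41 and the bounds 74.3-fold and 13-fold. From day 1 to day 3 the signal was 5.70-fold lower, with a log2 change of -2.51 ± 0.55.

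The promoters of Ngp, Ltf and Olfm4 are shown as examples of specific granule genes whose signals of days 1 and 0 did not overlap, beside that of Chil3, which was called present in no mouse of day 0 and in every mouse of days 1 and 3. Promoters of all 10 genes were in the RefSeq table used (build GRCm38.p6), each with 250 bases before and 50 after the transcription start. They were searched on both strands for TTGCNNAA, a site of C/EBP factors, and for GAGGAA, the core of PU.1 sites, and matches are in capitals; matches on the reverse strand read TTNNGCAA and TTCCTC, and no matches overlapped. The windows are Ngp at chr9:110419558-110419857 (plus strand), Ltf at chr9:111019042-111019341 (plus strand), Olfm4 at chr14:80000052-80000351 (plus strand) and Chil3 at chr3:106167515-106167814 (minus strand), and each is printed 5′ to 3′ along its gene.
Ngp: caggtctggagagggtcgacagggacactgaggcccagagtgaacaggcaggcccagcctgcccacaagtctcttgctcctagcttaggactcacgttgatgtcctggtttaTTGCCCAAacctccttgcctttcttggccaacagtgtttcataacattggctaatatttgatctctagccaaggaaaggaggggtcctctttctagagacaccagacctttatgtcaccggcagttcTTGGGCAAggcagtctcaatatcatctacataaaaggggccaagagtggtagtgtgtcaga
Ltf: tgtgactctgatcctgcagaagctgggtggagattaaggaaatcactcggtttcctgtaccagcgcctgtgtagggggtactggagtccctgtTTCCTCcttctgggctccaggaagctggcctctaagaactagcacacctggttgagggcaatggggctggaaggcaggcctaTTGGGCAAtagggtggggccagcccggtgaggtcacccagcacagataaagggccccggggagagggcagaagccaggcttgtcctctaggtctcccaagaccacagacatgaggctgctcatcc
Olfm4: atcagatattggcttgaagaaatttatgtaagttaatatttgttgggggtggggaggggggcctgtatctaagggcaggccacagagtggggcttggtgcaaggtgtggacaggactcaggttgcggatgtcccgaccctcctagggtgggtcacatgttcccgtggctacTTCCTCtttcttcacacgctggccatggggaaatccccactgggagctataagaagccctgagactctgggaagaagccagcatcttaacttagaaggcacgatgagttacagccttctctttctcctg
Chil3: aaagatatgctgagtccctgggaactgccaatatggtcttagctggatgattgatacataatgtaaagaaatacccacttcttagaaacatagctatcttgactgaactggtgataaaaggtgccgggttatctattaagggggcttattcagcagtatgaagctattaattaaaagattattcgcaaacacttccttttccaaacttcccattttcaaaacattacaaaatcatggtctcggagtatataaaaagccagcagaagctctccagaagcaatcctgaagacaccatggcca

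TTGCNNAA was found in Ngp, starting at positions -138 and -11 from the transcription start, and in Ltf at -75, which is 2 of 10 genes. It lay in 10.8% of the 32851 windows of the same length. GAGGAA was found in 6 of 10 genes, among them Ltf at -157 and Olfm4 at -79, and in 28.3% of all windows. The other 4 with GAGGAA were Mpo and Pglyrp1, each with 2 matches, and Elane and Cd177, each with 1. Camp, Lyz2 and Chil3 held neither motif in these windows. These are matches of letters, and binding was not measured.

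Pglyrp1 encodes a peptidoglycan recognition protein that neutrophils keep in their granules. Its signals were 144, 166 and 175 on day 0, 194, 209 and 189 on day 1, and 83.3, 80.0 and 134 on day 3. It was called present in every mouse except the day 3 mouse at 83.3, which was marginal, and the 3 days did not overlap, day 1 being the highest and day 3 the lowest. The log2 change from day 0 to day 1 was 0.29 ± 0.22, and it was 0.55 with the arrays centred on their medians. The SE pools the 3 days, whose SDs of log2 signal were 0.15 on day 0, 0.08 on day 1 and 0.41 on day 3. From day 1 to day 3 the signal was 2.05-fold lower (log2 change -1.03 ± 0.22), and from day 0 to day 3 it was 1.68-fold lower (-0.75 ± 0.22). Pglyrp1 was the only gene of the 10 whose 3 signals of day 3 all lay below those of day 0.

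Cd177 encodes a surface glycoprotein of neutrophils that is also stored in specific granules. Its signals were 6.31, 28.9 and 53.9 on day 0, 321, 338 and 348 on day 1, and 106, 87.0 and 110 on day 3. The mice of day 1 lay close together and far above the others, all were called present, and 1 of 3 mice of day 3 and none of day 0 were. Day 1 was at least 13.6-fold and day 3 at least 4.06-fold higher than day 0, with log2 changes of 3.97 ± 0.58 and 2.23 ± 0.58. Both values leaned on the day 0 mouse at 6.31: without it the bounds were 8.48-fold and 2.54-fold and the log2 changes 3.08 and 1.34. From day 1 to day 3 the signal was 3.34-fold lower, with a log2 change of -1.74 ± 0.58. The SD of log2 signal was 1.59 on day 0, against 0.06 on day 1 and 0.18 on day 3.

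Chil3 encodes a chitinase-like lectin (Ym1) that is secreted by activated macrophages and made by maturing neutrophils. Its signals were 24, 35.5 and 4.4 on day 0, 4500, 6846 and 4454 on day 1, and 444, 572 and 522 on day 3. All mice of days 1 and 3 were called present and none of day 0 was, and the 3 days were far apart. Day 1 was at least 252-fold and day 3 at least 24.9-fold higher than day 0, with log2 changes of 8.37 ± 0.57 and 5.03 ± 0.57. Without the day 0 mouse at 4.4 the bounds were 176-fold and 17.4-fold and the log2 changes 7.46 and 4.12, and without the day 0 mouse at 35.5 the changes were 8.97 and 5.63. Between days 1 and 3 the signal was 10.1-fold lower (-3.34 ± 0.57). The SD of log2 signal was 1.6 on day 0, where no array called the gene present, against 0.35 on day 1 and 0.19 on day 3.

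Chil4 is a near relative of Chil3, and a further probe set is assigned to both genes. Its signals were 41.1, 35.6 and 47.9 on day 0, 3091, 4374 and 2595 on day 1, and 258, 328 and 318 on day 3, so its mice fell in the same order of days as those of Chil3. It was 10.9-fold lower on day 3 than on day 1 (log2 change -3.45 ± 0.20). The probe set assigned to Chil4 alone gave 49.0, 36.8 and 35.7 on day 0, 51.4, 73.6 and 26.0 on day 1, and 19.9, 18.8 and 3.97 on day 3. It was called present on day 1 only, but days 0 and 1 overlapped. How far transcripts of Chil4 bind the probes of Chil3 was not tested.

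Lyz2 encodes the lysozyme of macrophages and neutrophils. Its signals were 17302, 21966 and 19596 on day 0, 21794, 24703 and 17325 on day 1, and 23948, 23546 and 21527 on day 3. Every mouse was called present at high signal and every pair of days overlapped. The log2 changes were 0.11 from day 0 to day 1, 0.23 from day 0 to day 3 and 0.13 from day 1 to day 3, each ± 0.13. The first was -0.01 without the day 1 mouse at 24703 and 0.37 after median centring, and the last was -0.01 without the day 1 mouse at 17325 and -0.04 after median centring, so no direction can be given.

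The neighbouring lysozyme gene Lyz1 had 3 probe sets. The first and second, of a kind that can bind several transcripts, were called present in every mouse and ranged over all mice from 23029 to 31219 and from 10781 to 27111. Days 0 and 1 overlapped in both, and in the first the signals of day 3 all lay above those of day 0, by 1.11-fold. The third gave 127, 117 and 184 on day 0, 161, 171 and 163 on day 1, and 118, 71.8 and 103 on day 3. Its signals were lower on day 3 than on day 1 without overlap, by 1.73-fold (-0.79 ± 0.26).

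**Figure D2:**
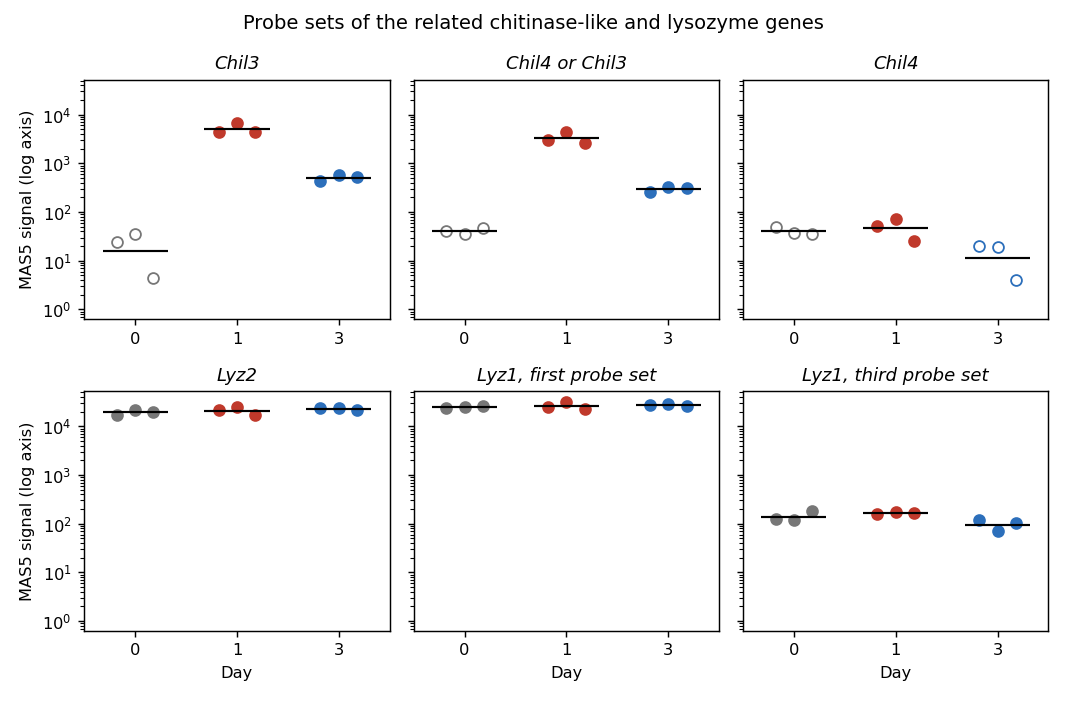
MAS5 signal (log axis) of probe sets for Chil3 and its relative Chil4 (upper row) and for Lyz2 and its relative Lyz1 (lower row) in each mouse of days 0, 1 and 3, filled where called present, with bars at geometric means; the second probe set of Lyz1 is not drawn. The probe set assigned to both Chil4 and Chil3 peaked on day 1 as Chil3 did, whereas the probe set of Chil4 alone stayed at 73.6 or below and the days of Lyz2 overlapped.

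The mice of day 1 did not rank alike across the 10 genes. Mouse 3 had the highest signal of Camp, 190, and of Ngp, 371, and mouse 2 the lowest of both, at 9.09 and 88.2. Mouse 2 was also the lowest for Ltf and Mpo, at 33.7 and 7.56, neither called present. No mouse of day 1 was called present for Mpo or for Elane, for which mouse 1 was the lowest at 12.6. For Chil3 the order was turned, mouse 2 being the highest at 6846, and for Olfm4 mouse 1 was the highest at 1185. Cd177 hardly differed, with an SD of log2 signal of 0.06 over the 3 mice, against 0.35 for Chil3, 0.60 for Olfm4, 1.09 for Ngp and 2.20 for Camp, which was not called present. Over 14 further genes of mature neutrophils, the mean log2 signal relative to day 0 was 4.23, 3.73 and 3.51 in mice 1, 2 and 3, so mouse 3, highest in Camp and Ngp, was the lowest of the 3 in these. With 3 mice these orders are descriptions.

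**Figure D3:**
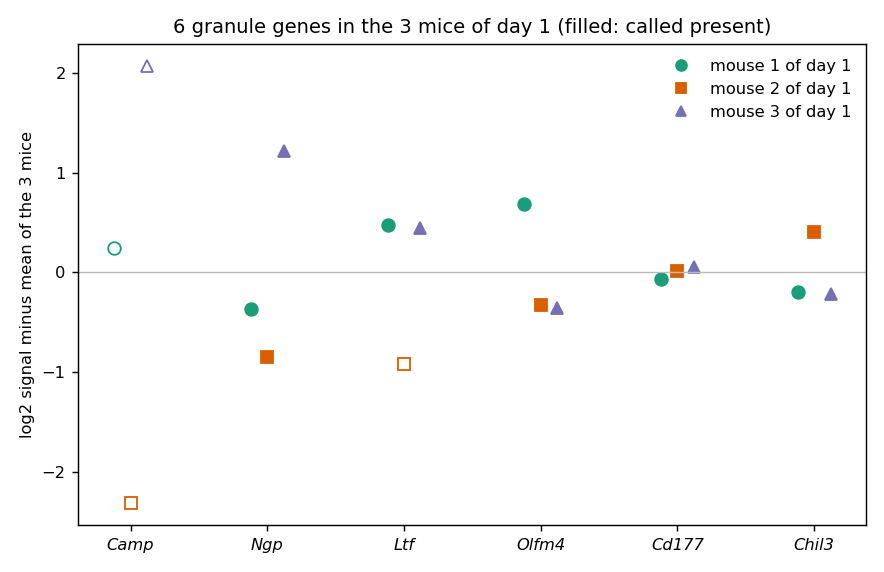
Log2 MAS5 signal of 6 granule genes in the 3 mice of day 1, each as the difference from the mean of these mice, filled where called present. Mouse 3 was highest and mouse 2 lowest for Camp and Ngp, mouse 2 was highest for Chil3, and the 3 mice nearly coincided for Cd177.

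Other granule and neutrophil genes were tested with limma, with p-values adjusted by Benjamini-Hochberg over all 11796 genes and a gene called at an adjusted p under 0.05. On day 1, 10.7% of all genes were called higher than on day 0 and 17.9% lower, on day 3 13.6% were higher and 12.5% lower, and from day 1 to day 3 9.66% were higher and 4.54% lower. The split depended on scaling. On day 1 there were 1268 genes higher and 2110 lower, but 2212 and 667 with the arrays centred on their medians and 1398 and 1501 after quantile normalization. On day 3 the counts were 1600 and 1474, and 1801 and 958 after centring, and from day 1 to day 3 they were 1140 and 536, and 464 and 707 after centring. The median log2 change of all genes on day 1 was -0.13, and 0.13 after centring. Among 40 genes of 4 neutrophil lists (azurophil, specific and gelatinase granules and mature neutrophils), 29 rose on day 1, 25 were higher on day 3 than on day 0, and 18 fell from day 1 to day 3. These lists and those of other cell types were chosen with earlier results of these data known. Their counts therefore describe the listed genes and are no independent support.

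Of 6 measured genes of azurophil granules and promyelocytes, 3 rose on day 1 and 1 fell, and the median log2 change was 0.31. Ctsc, the cathepsin that activates the granule serine proteases, rose by 0.84 ± 0.09 (adjusted p = 5.28e-05), and was higher on day 3 by 0.82 ± 0.09 (adjusted p = 5.6e-05). With the mean of all its probe sets the changes were 0.15 and 0.24 and neither was called (adjusted p = 0.366 and 0.188). Gusb, a lysosomal glucuronidase, rose by 0.39 ± 0.12 on day 1 (adjusted p = 0.0271) and was higher by 1.32 ± 0.12 on day 3 (adjusted p = 1.62e-05). The day 1 call was lost without replicate 1, 2 or 3 of day 0 or replicate 1 of day 1, with adjusted p between 0.0505 and 0.104. Fcnb, ficolin B, was detected on day 1 alone, with a change of 0.79 ± 0.25 (adjusted p = 0.0349). The call was lost without any 1 of the 6 arrays of days 0 and 1 (adjusted p between 0.0537 and 0.0984). It was also lost with no filter on detection (adjusted p = 0.0922, limma), a filter that Fcnb passed only through day 1. Serpinb1a, an inhibitor of neutrophil elastase, fell by 0.36 on day 1 (SE 0.11, adjusted p = 0.0314) and was lower on day 3 by 0.43 (adjusted p = 0.0137). Its day 1 call was lost without replicate 1, 2 or 3 of day 0 or replicate 1 of day 1 (adjusted p between 0.0576 and 0.111), its day 3 call without replicate 1 or 2 of day 3 (0.0674 and 0.052), and both after centring (0.61 and 0.0788). The list's serine proteases nearest to Elane, Prtn3 and Ctsg, were called present on no array. Prtn3 had signals of 58.8, 22.5 and 9.64 on day 0 and of 154, 94.5 and 126 on day 1. Srgn, the proteoglycan that holds granule contents, and Ms4a3 were not called, with changes of 0.23 ± 0.08 (adjusted p = 0.0605) and 0.16 ± 0.29 (adjusted p = 0.708) on day 1.

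Of 13 measured genes of specific granules, 8 rose on day 1 and 1 fell, with a median log2 change of 0.68, and 6 were higher on day 3. Lcn2, lipocalin 2, which binds bacterial siderophores, rose 33.1-fold on day 1 (log2 change 5.05 ± 0.32, adjusted p = 1.13e-06) and fell 4.74-fold from day 1 to day 3 (adjusted p = 0.00105). Mmp8, neutrophil collagenase, rose by 5.52 ± 0.70 (adjusted p = 0.000237) from a level called present in 1 of 3 mice of day 0, and Hp, haptoglobin, rose by 4.66 ± 0.37 (adjusted p = 7.79e-06). The change of Mmp8 was 4.42 without its day 0 mouse at 4.12 and 6.17 without the one at 46.7. From day 1 to day 3 Mmp8 changed by -2.26 (adjusted p = 0.0512) and Hp by -1.2 (adjusted p = 0.053), so neither was called. For both genes the signals of day 3 all lay below those of day 1. Mmp8 stayed uncalled in 10 of 18 alternatives and Hp in 12 of 18. In the rest each was called lower, among them the fit of only the 6 arrays compared. The lowest adjusted p was 0.000281 for Mmp8 and 0.00805 for Hp (limma). Itgam, the integrin CD11b, which monocytes and macrophages also carry, rose 5.59-fold (2.48 ± 0.17, adjusted p = 1.83e-06). Its fall of 0.60 from day 1 to day 3 (adjusted p = 0.0343) was lost without replicate 1 of day 1 (change -0.38) or without replicate 1, 2 or 3 of day 3 (adjusted p between 0.0711 and 0.102). Anxa3, annexin A3, went against the list with -0.35 ± 0.12 on day 1 (adjusted p = 0.0487), a call lost in 14 of 19 alternatives, among them without any array but replicate 1 of day 0 (adjusted p between 0.053 and 0.178). Ptx3 and Lrg1 were not called, with changes of 0.26 ± 0.10 (adjusted p = 0.0745) and 0.67 ± 0.28 (adjusted p = 0.0892) on day 1.

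Of 7 measured genes of gelatinase granules and secretory vesicles, 5 rose on day 1 with a median log2 change of 0.93. Fpr2, a formyl peptide receptor, rose 40.7-fold (5.35 ± 0.19, adjusted p = 1.22e-08) and fell 2.88-fold from day 1 to day 3 (adjusted p = 0.000474). Slc11a1, a metal transporter of phagocytes, rose by 1.05 ± 0.16 (adjusted p = 0.000869), Plaur, the urokinase receptor, by 0.97 ± 0.13 (adjusted p = 0.000422) and Fcgr3, a receptor for antibodies, by 0.93 ± 0.18 (adjusted p = 0.00412). Mmp9, gelatinase B, which gives these granules their name, was not called, with changes of 0.30 ± 0.23 on day 1 (adjusted p = 0.344) and 0.45 ± 0.23 on day 3 (adjusted p = 0.174). Alpl, alkaline phosphatase, was lower on day 3 than on day 0 by 1.91-fold (-0.93 ± 0.19, adjusted p = 0.00382).

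Of 14 measured genes of mature neutrophils, 13 rose on day 1 with a median log2 change of 3.79, 13 were higher on day 3 with a median of 1.73, and 11 fell from day 1 to day 3. Stfa2l1, a stefin, rose by 8.52 ± 0.72 (adjusted p = 1.1e-05) from a level called present in 1 of 3 mice of day 0, and by 7.44 without the day 0 mouse at 2.1. S100a8 and S100a9, the subunits of calprotectin, rose 74.7-fold and 69.1-fold (6.22 ± 0.32, adjusted p = 2.9e-07, and 6.11 ± 0.29, adjusted p = 1.35e-07) and fell 4.33-fold and 5.12-fold from day 1 to day 3 (adjusted p = 0.00177 and 0.000447). Hcar2, a receptor for hydroxybutyrate, rose 33.5-fold (5.07 ± 0.26, adjusted p = 2.58e-07). Il1r2, the decoy receptor for interleukin 1, went against the list, with signals of 4325, 6933 and 5491 on day 0, 8654, 8231 and 6049 on day 1, and 2591, 3129 and 2473 on day 3. It was not called on day 1 (0.46 ± 0.18, adjusted p = 0.0767) and was 2.02-fold lower on day 3 than on day 0 (adjusted p = 0.00213). Il1r2 and Alpl thus shared with Pglyrp1 a signal on day 3 below that of day 0.

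**Figure D4:**
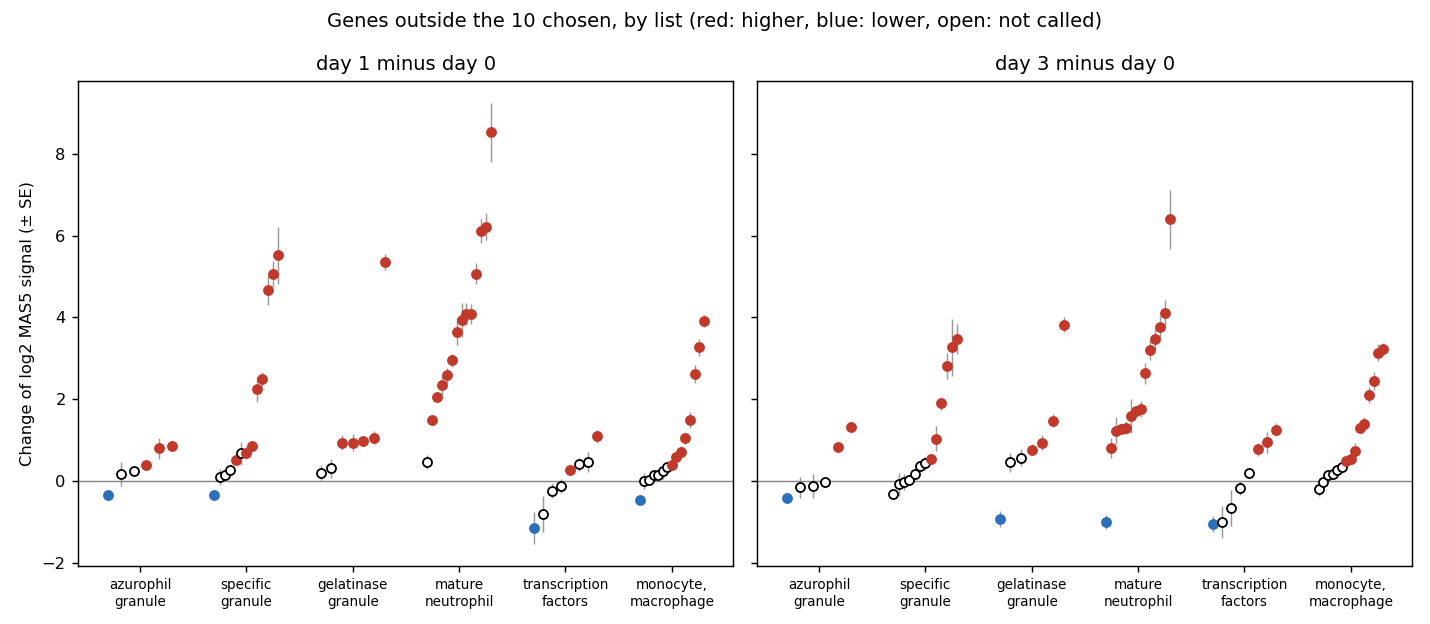
Change of log2 MAS5 signal (± SE) of the tested genes of 6 lists, without the 10 granule and maturation genes, on day 1 (left) and day 3 (right) relative to day 0. Each point is a gene, red where called higher, blue where called lower and open where not called. Of the mature neutrophil genes 13 of 14 were higher on both days, whereas the azurophil granule genes stayed between -0.43 and 1.32.

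Of 8 measured transcription factors of granulocyte development, 2 rose on day 1 and 1 fell, with a median log2 change of 0.07, and 3 were higher and 1 lower on day 3. Spi1, which encodes PU.1 and serves monocytes as well, rose by 1.09 ± 0.16 on day 1 (adjusted p = 0.000602) and was higher by 1.25 ± 0.16 on day 3 (adjusted p = 0.000204). Cebpa was higher on day 3 by 0.77 ± 0.16 (adjusted p = 0.00539), as was Runx1 by 0.94 ± 0.25 (adjusted p = 0.019), a call lost without replicate 2 of day 0 or replicate 1 or 2 of day 3 (adjusted p between 0.0575 and 0.0847) and in 2 other alternatives. Cebpd was lower on day 3 than on day 0 by 2.09-fold (-1.06 ± 0.19, adjusted p = 0.00212). Gfi1, a repressor needed for neutrophil formation, had signals of 358, 329 and 446 on day 0, 89.2, 161 and 331 on day 1, and 140, 179 and 261 on day 3. Its days 0 and 1 overlapped and its fall of 1.15 on day 1 (SE 0.39, adjusted p = 0.0445) was lost in 11 of 19 alternatives (adjusted p between 0.0522 and 0.158), among them without replicate 1, 2 or 3 of day 0, replicate 1 or 2 of day 1 and replicate 1 or 2 of day 3. Without replicate 1 of day 1 the change was -0.70. The call of Cebpb on day 1 (0.26 ± 0.08, adjusted p = 0.0295) was lost without replicate 1, 2 or 3 of day 0 or replicate 1 of day 1 (adjusted p between 0.07 and 0.0971) and in 3 other alternatives. Myb and Irf8 were not called, with changes of -0.82 ± 0.44 (adjusted p = 0.179) and -0.13 ± 0.17 (adjusted p = 0.596) on day 1.

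Genes of monocytes and macrophages, which share Chil3 and Lyz2 with neutrophils, were also tested. Of 15 measured, 8 rose and 1 fell on day 1 with a median log2 change of 0.39, and 9 were higher on day 3. Fcgr1, a high-affinity antibody receptor, rose 15.0-fold (3.91 ± 0.15, adjusted p = 2.52e-08), Msr1, a scavenger receptor, 9.64-fold (3.27 ± 0.21, adjusted p = 1.13e-06), Ccr2, the chemokine receptor of inflammatory monocytes, 6.11-fold (2.61 ± 0.22, adjusted p = 1.04e-05) and Ms4a7 2.80-fold (1.49 ± 0.19, adjusted p = 0.000307). Csf1r, the receptor that macrophages depend on, fell by 0.47 (SE 0.11, adjusted p = 0.00885), but was not called after centring (-0.21, adjusted p = 0.279). C1qa, a subunit of complement C1q, and F13a1, the A chain of coagulation factor XIII, were not called, with changes of 0.01 ± 0.11 (adjusted p = 0.952) and 0.14 ± 0.13 (adjusted p = 0.443) on day 1. The mean log2 signal of the 15 genes relative to day 0 was 0.78 to 1.15 on day 1 and 0.92 to 1.2 on day 3, so the mice of the 2 days overlapped. That of the 14 mature neutrophil genes was 3.51 to 4.23 on day 1 and 2.04 to 2.55 on day 3, without overlap. Which cells carried Chil3, Cd177 and Olfm4 was not tested, nor was it for the genes of the neutrophil lists, Hcar2, Ctsc and Gusb among them.

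Of 7 measured genes of eosinophils and mast cells, 1 rose on day 1 and 5 were lower on day 3. The gene that rose was Siglecf (1.16 ± 0.37, adjusted p = 0.0356), and this call was lost without replicate 1 or 3 of day 0 or replicate 1 or 2 of day 1 (adjusted p between 0.0528 and 0.145). The eosinophil granule genes Prg2 and Epx did not pass the detection filter. Of 5 measured genes of red cells and platelets, 2 rose on day 1, and the median log2 change was -0.01. Those that rose were the platelet chemokines Ppbp, by 7.35 ± 0.25 (adjusted p = 1.19e-08), and Pf4, by 1.26 ± 0.18 (adjusted p = 0.000475). The red cell genes Alas2 and Slc4a1 were not called, with changes of -0.29 ± 0.31 (adjusted p = 0.491) and -0.87 ± 0.45 (adjusted p = 0.163), nor was the platelet integrin gene Itga2b (-0.01 ± 0.18, adjusted p = 0.984). The part of blood left in the tissue in these signals was not tested.

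The genes whose pattern lay nearest to each granule gene were found by the root mean square difference of log2 signals over the 9 arrays, after each gene was centred on its own mean. For Olfm4 they were Acod1, the enzyme that makes itaconate, at 0.66, S100a9 at 0.73 and S100a8 at 0.76. For Chil3 they were Stfa2l1 at 0.80, Ppbp at 1.19 and S100a9 at 1.21. For Cd177 they were F10, coagulation factor X, at 0.54, Ankrd66 at 0.57 and Trim30d at 0.71, and for Ngp Tmem236 at 0.81, Gpr31b at 0.90 and Fgf23 at 0.98. For Pglyrp1 they were Ggct at 0.14, St3gal6 at 0.17 and Ly6k at 0.18, and for Lyz2 Tmco1 at 0.04, Josd2 at 0.05 and Ggh at 0.06. The measure is small for genes that hardly vary, so the distances of Lyz2 and Pglyrp1 cannot be set against those of Chil3.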

How the data were processed

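RNA of SVFs from 9 mice, 3 on each of days 0, 1 and 3, was hybridised to Affymetrix Mouse430_2 arrays. The authors summarized the probes with MAS5 (version not given in the sources used here) and scaled each array, and the deposited files hold for each probe set the MAS5 signal intensity, a detection call and a detection p-value. The authors' value table of the series equals the array files within 5e-04 percent. The highest detection p called present was 0.0488. No read depth exists for arrays, and their number limits the precision.

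Probe sets were named through the platform annotation: of 45101, 34945 had 1 gene symbol, 932 several and 9160 none, and 64 were controls. The Entrez numbers changed 0 symbols. A gene was tested if 1 of its probe sets had a present call in all 3 mice of any day, the brightest such probe set standing for it, which gave 11796 genes. Log2 signals with no offset were fitted with day as the factor over all 9 arrays, which leaves 6 residual degrees of freedom, using the R packages limma (version 3.58.1; a linear model, contrasts and moderated statistics whose prior variance followed the mean signal) and data.table (version 1.17.8) under R 4.3.3. Tests were two-sided. The script was tested on simulated data with known changes.

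The 10 genes and all gene lists were chosen with earlier results of these data known. Named in the text were the 10 genes, of each list up to 4 called genes with the largest change on day 1, up to 2 not called on either day with the largest mean signal, and genes that moved against most of their list, every measured transcription factor and azurophil gene, the 3 genes of nearest pattern, and the relatives Chil4 and Lyz1. Named outside this rule, as markers of other cells, were Prg2, Epx, Pdgfra, Dcn, Lum, Pecam1, Cdh5, Ptprc, Adipoq, Col1a1, Ppbp, Pf4, Alas2, Slc4a1 and Itga2b. Among the list genes not named in the probe table used here were Prss57, Bpi, Cd63, Chi3l1, Mmp25, Fpr1, Ly6g, Retnlg, Cebpe, Hbb-bs and Plin1. Promoters came from a RefSeq table. Alternatives varied scaling, offset, detection filter, choice of probe set, samples fitted, a replicate block and each array left out, and applied the fold and p of the study's criteria with an ordinary analysis of variance. The replicate numbers were not treated as pairs, since the methods name individual mice at each time point.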

Additional observations from a re-analysis of the deposited data

Results flagged for a closer look

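Probe sets assigned to several genes were not used for any gene in the comparisons, and only 1 of them was looked at. This was the probe set shared by Chil4 and Chil3, which carried a clear signal. Its signal was 79.4-fold higher on day 1 than on day 0, where it was called present in none of the 3 mice, against all 3 on days 1 and 3. The fold was measured against the probe set's own absent signal on day 0. No other result was flagged, and groups of 3 mice are too small for a search for outlying mice.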

How the results depend on the processing

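The 6 granule genes that passed the detection filter had 5, 3 and 5 genes whose groups did not overlap (higher on day 1, higher on day 3, lower from day 1 to day 3). These counts were 0, 0 and 0 among probe sets present on all 9 arrays, since of the 6 only Lyz2 is then measured. An offset of 16 or 64 added to the signal lowered the log2 changes on day 1 to 5.05 and 3.49 for Olfm4 and to 7.22 and 5.95 for Chil3, and an offset of 64 lowered that of Cd177 to 2.12, with no change of sign. The counts of called genes in the 4 neutrophil lists, 29, 25 and 18, ran from 27 to 31, 21 to 28 and 12 to 23 with each array left out. Of the 83 list genes, 48, 53 and 30 were called in the 3 comparisons, and 33, 38 and 19 of these calls held in every alternative in which the gene was tested by limma, with 0 changes of sign among called genes. Over all genes, median centring gave 2212 higher and 667 lower on day 1, 958 lower on day 3 and 464 higher from day 1 to day 3, and a fit of only the 6 arrays compared gave 1402 lower on day 1. A fold of 2 with an unadjusted p of an ordinary analysis of variance, in place of the one for repeated measurements that the methods name, since the mice differ between days, gave 424 higher and 328 lower on day 1, 522 and 338 on day 3, and 245 and 200 from day 1 to day 3. With each array left out the counts ran from 806 to 1685 higher and 1000 to 2863 lower on day 1, 1058 to 1807 and 831 to 1811 on day 3, and 474 to 1823 and 253 to 1000 from day 1 to day 3, and every array except replicate 2 of day 0 moved at least 1 of these counts by over 1.5 times. The cause of these shifts was not tested. The deviations of same-numbered mice correlated with r from -0.15 to 0.33, over 0.1 in 2 of 9 pairs. The highest r was that of replicate 2 of days 0 and 1. The number of arrays that correlated best with their own number on both other days was 0. With the replicate number as a block, 1332 genes were higher and 2177 lower on day 1, 1608 and 1549 on day 3, and 1130 and 616 from day 1 to day 3 and the neutrophil lists had 30, 27 and 20 calls. Signals of Mpo, Elane, Camp and Ltf lay so near background that small changes were not detectable.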
